A study of Mus musculus with 6 samples.

Results

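The Seh1-flag peak list and the Chd4 siSCR peak list were compared, both from chromatin immunoprecipitation followed by sequencing (ChIP-seq) in mouse neural stem cells. All 24961 Seh1-flag peaks and all 2606 siSCR peaks were used, 27567 of the 97783 peaks in the 6 lists of the series. A peak was called shared when its summit, the single base at which the peak was listed, lay under 240 bp from a summit of the other list. By that rule 178 peaks of each list were shared, and they formed 178 pairs in which each summit was the nearest to the other.

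The Seh1-flag library came from cells titled iKO, with the genotype given as wild type and 4-OH-TAM (4-hydroxytamoxifen, which switches on tamoxifen-dependent Cre recombinase) in the medium, and the immunoprecipitation was directed at flag-tagged Seh1. The siSCR library came from wild-type cells titled siSCR, in growth medium, and the immunoprecipitation was directed at Chd4. Both used neural stem cells taken from mouse cortex at postnatal day 0, grown with EGF and bFGF and fixed for 10 min in 1% formaldehyde. The name of its list in the file header begins with oe, then seh1 and wt, and oe often stands for overexpression, but no source used here spells it out, nor says if the cells still had Seh1 of their own. If the tagged protein was made in excess, every Seh1-flag peak is one of excess protein. There was 1 library per group, so no value has a replicate error and no difference was tested between conditions. The target and the treatment differ together, and their parts in any difference between the lists cannot be told apart.

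Seh1 is a WD-repeat protein of the Y complex, the scaffold that coats the nuclear pore, and it also belongs to GATOR2, a regulator of growth signalling at the lysosome. Chd4 is the motor ATPase of NuRD, the nucleosome remodelling and histone deacetylase complex, which moves nucleosomes and removes acetyl groups from histones at promoters and enhancers. In the developing cortex NuRD takes part in the switch from dividing progenitors to neurons. A shared peak means only that each list holds a summit under 240 bp from one of the other. How enrichment was called is not stated, and a shared peak says nothing of contact between the proteins.

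The Pgk1 promoter is shown first because it was the 1 RefSeq promoter window (250 bases before to 50 after the gene's start) in which both summits of a shared pair lay. Pgk1 encodes the glycolytic enzyme phosphoglycerate kinase. The window is at chrX:106186850-106187149, plus strand, sequence from RefSeq, GRCm38.p6. The capitals mark the 80 bases between the Seh1-flag summit at base 131 and the siSCR summit at base 52, both included, counted from 1 at the 5′ end.
Pgk1: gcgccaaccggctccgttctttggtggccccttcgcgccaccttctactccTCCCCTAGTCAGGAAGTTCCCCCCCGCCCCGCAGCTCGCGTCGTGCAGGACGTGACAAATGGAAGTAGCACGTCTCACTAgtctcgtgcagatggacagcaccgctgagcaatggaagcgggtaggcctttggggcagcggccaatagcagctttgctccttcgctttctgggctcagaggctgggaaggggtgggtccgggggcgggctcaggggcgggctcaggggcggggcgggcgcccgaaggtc

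The Miga2 promoter is shown for contrast, as a gene with a promoter peak in both lists and no shared summit. Miga2 encodes a protein of the outer mitochondrial membrane. Its window is at chr2:30363983-30364282, plus strand, from the same RefSeq table, and the capitals are 11 bases centred on the siSCR summit. The Seh1-flag summit lay 471 bp away, outside the window.
Miga2: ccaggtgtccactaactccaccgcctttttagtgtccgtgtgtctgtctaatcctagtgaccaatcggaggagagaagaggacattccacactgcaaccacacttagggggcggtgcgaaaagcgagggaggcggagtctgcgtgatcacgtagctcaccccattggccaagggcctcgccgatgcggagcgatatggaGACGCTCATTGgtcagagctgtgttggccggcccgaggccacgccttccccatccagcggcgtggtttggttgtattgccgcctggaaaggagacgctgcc

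A stretch of 60 bases is shown from the region that held the most shared pairs, a cluster of Speer genes and related copies on chromosome 5. Speer genes are a rodent family known for expression in the testis. The stretch surrounds the siSCR promoter summit of Gm9758 (base 31 of the 60). That summit was not shared, as the nearest Seh1-flag promoter summit lay 399 bp away. The same 60 bases, with 0 differences, occur in the promoter windows of Gm17019, Speer4e and Speer4c. At those genes no summit of either list lay in the stretch. On the minus strand it lies at chr5:14914960-14915019 for Gm9758, chr5:15033069-15033128 for Gm17019, chr5:14938537-14938596 for Speer4e and chr5:15714333-15714392 for Speer4c (GRCm38.p6).
Gm9758: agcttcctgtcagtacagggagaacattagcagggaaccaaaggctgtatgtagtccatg

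The 178 shared peaks were 0.713% of the Seh1-flag list (95% exact Clopper-Pearson interval 0.612 to 0.825%) and 6.83% of the siSCR list (5.89 to 7.87%). The Seh1-flag list held 9.58 times as many peaks, which alone makes its share smaller. All intervals cover counting error only and treat peaks as independent, although neighbouring peaks share their surroundings. The rule itself keeps the summits of a pair close, and below its limit the median distance was 48 bp, with quartiles of 17.25 and 109.75 bp. In 51 pairs they were 20 bp or less apart, and in 2 they were at the same position. Neither protein's summit lay mainly to one side: the Seh1-flag summit had the higher coordinate in 91 pairs and the lower in 85. As summits so close mostly must, both carried the same annotation in all 178 pairs and the same nearest gene in 174. The pairs named 89 genes.

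In steps of 60 bp, 103, 37, 18 and 20 siSCR summits lay within 240 bp of a Seh1-flag summit, and the next steps held 12, 11 and 12. The count per step thus fell with distance and was nearly level just beyond the limit. The pairs just inside it were those nearest Steap1 (224 bp), LOC100861615 (228 bp) and 1190028D05Rik (234 bp). The pairs just outside were those nearest Elobl (240 bp), Ly6f (244 bp) and 4933407K13Rik (251 bp).

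**Figure D1:**
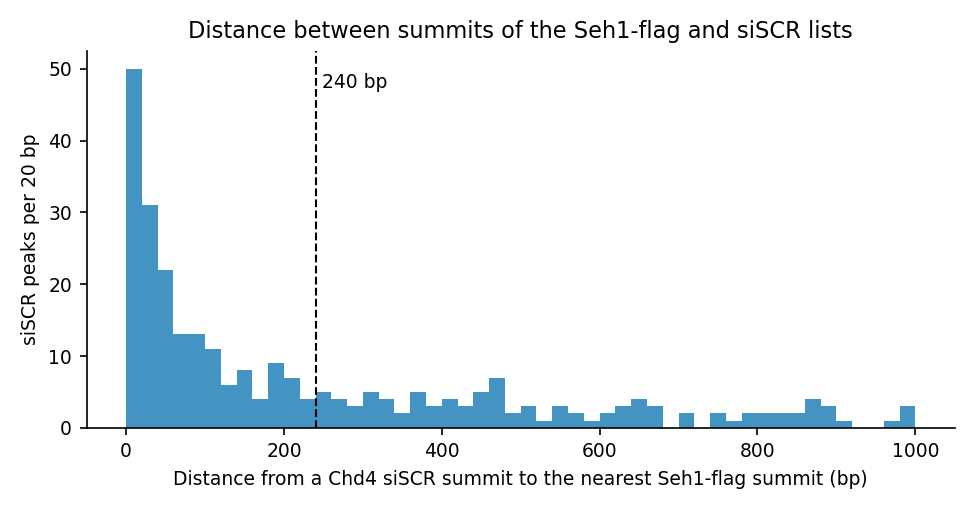
Number of siSCR peaks in steps of 20 bp (vertical axis) by the distance to the nearest Seh1-flag summit in bp (horizontal axis, to 1000 bp), with the 240 bp limit dashed. The count is highest within the first steps, and 51 pairs were 20 bp or less apart.

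Shared peaks lay mostly in intergenic sequence and seldom at promoters. By the deposited annotation, 135 of the 178 pairs were intergenic (75.8%, 68.9 to 81.9%), against 60.2% of the unshared Seh1-flag peaks and 57.7% of the unshared siSCR peaks. Introns held 30 pairs (16.9%, 11.7 to 23.2%), against 36.4% of the unshared Seh1-flag and 23.9% of the unshared siSCR peaks. No shared peak was annotated to a 5' or 3' UTR (0 of 178, at most 2.05%). Outside the dense bins described further on, the intergenic difference, shared minus unshared, was 10.6 percentage points in Seh1-flag (-0.817 to 20.0). That interval holds 0, so a difference beyond counting error was not seen there. In siSCR it was 14.2 percentage points outside those bins (2.55 to 23.8).

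The promoter share separated the siSCR peaks more than the Seh1-flag peaks. Within 1 kb of a transcription start site (TSS) lay 5 of the 178 shared peaks (2.81%, 0.918 to 6.43%), against 386 of the 2428 unshared siSCR peaks (15.9%, 14.5 to 17.4%). Among the unshared Seh1-flag peaks that share was 1.52% (1.37 to 1.68%), which lies within the interval of the shared ones. That depended on the limits: with sharing under 500 bp the Seh1-flag difference, shared minus unshared, was 4.58 percentage points (2.15 to 8.43), and with a promoter window of 500 bp it was 2.22 (0.613 to 5.82). Seen from the siSCR list, 5 of its 391 promoter peaks were shared (1.28%, 0.416 to 2.96%), against 173 of its 2215 other peaks (7.81%, 6.73 to 9.01%). The promoter peaks of Chd4 in siSCR cells thus had a Seh1-flag summit beside them less often than its distal peaks, by intervals that do not overlap.

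Repeats as a whole took a like share of shared and unshared peaks: 55.6% of the shared and 56.8% of the unshared Seh1-flag peaks lay in an annotated repeat, as did 53.9% of the shared and 49.2% of the unshared siSCR peaks. Single repeat classes differed. Satellite repeats, the tandem arrays near centromeres, held 11 pairs (6.18%, 3.12 to 10.8%), against 0.391% of the unshared Seh1-flag peaks and 0.247% of the unshared siSCR peaks. Of the 17 siSCR peaks in satellites, 11 were shared (64.7%, 38.3 to 85.8%). LINE elements, long transposable elements, were near one share everywhere, with 23.6% of the shared and 23.8% of the unshared siSCR peaks. SINE elements, which are short ones, held 5.62% of the shared and 15.1% of the unshared Seh1-flag peaks, but 5.06% of the shared and 4.53% of the unshared siSCR peaks. Elements with long terminal repeats (LTR) held 14.0% of the shared and 6.92% of the unshared Seh1-flag peaks, but 13.5% of the shared and 18.0% of the unshared siSCR peaks. For SINE and LTR elements the shared peaks thus stood nearer to the siSCR list. The treatment of reads that map to several places is not stated, and its part in the peaks at repeats and gene copies was not tested.

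**Figure D2:**
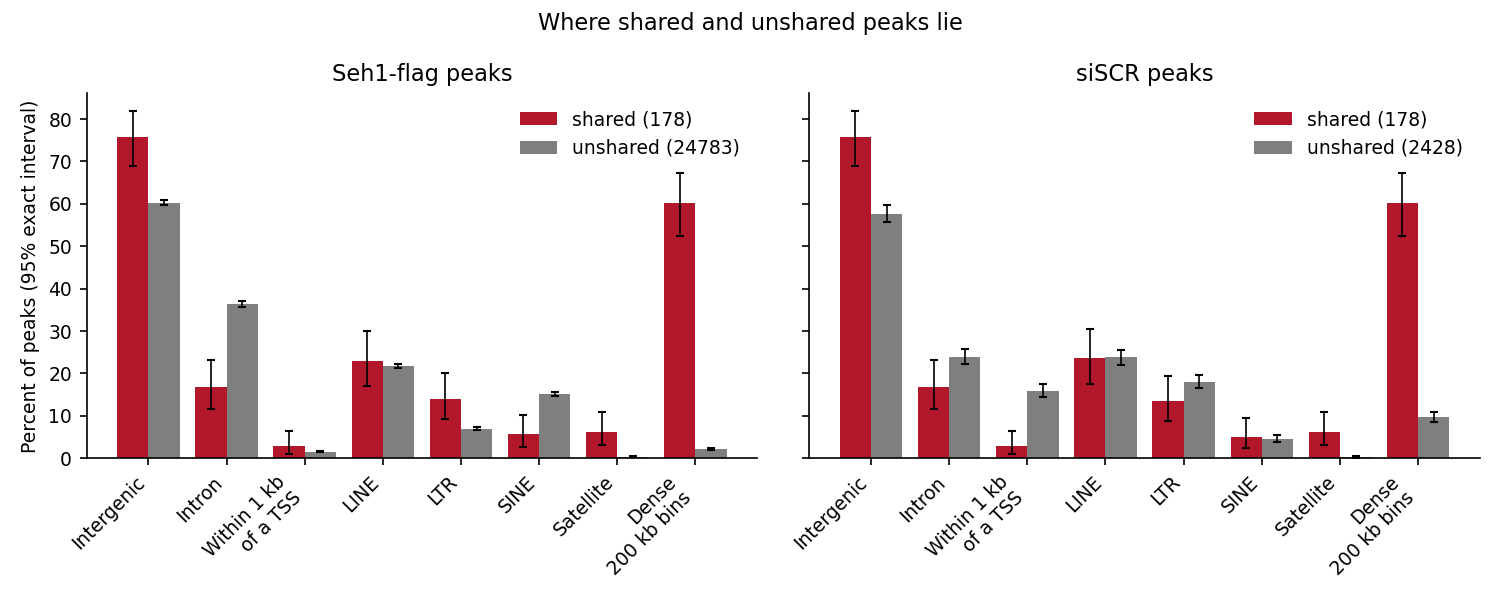
Percent of shared (red) and unshared (grey) peaks in 8 classes, for the Seh1-flag list on the left and the siSCR list on the right, with 95% exact intervals as error bars. The share within 1 kb of a TSS is 2.81% for shared and 15.9% for unshared siSCR peaks, and dense 200 kb bins hold 60.1% of the shared peaks of both lists.

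The difference in distance to genes was lost without 1 region and without dense bins. In siSCR it was also lost without peaks in repeats and among peaks at or above the median score. The median distance to the nearest TSS was 18859 bp for shared Seh1-flag peaks (95% interval 14013 to 28586 bp), against 45844 bp for unshared ones, and 18869 bp for shared siSCR peaks, against 36726 bp for unshared ones. Without the Speer gene region of chromosome 5 the difference in medians, shared minus unshared, was 3.36 kb in Seh1-flag (-15.8 to 23.5 kb) and 12.2 kb in siSCR (-7.09 to 32.4 kb), and without peaks in repeats it was 1.88 kb in siSCR (-3.90 to 19.9 kb). These 3 intervals, which take the error of the shared median only, hold 0, so no difference in either direction was seen there. Without dense bins the interval also held 0 in Seh1-flag (-10.3 kb, -24.9 to 24.2 kb) and in siSCR (-1.60 kb, -16.2 to 32.9 kb). So did that of siSCR peaks at or above the median score (-4.85 kb, -8.26 to 0.92 kb).

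Shared peaks carried high scores in both lists. The score is the authors' own value for a peak, its scale is not stated, and it was used only to rank peaks within a list, with percentile 0 for the highest score. The median percentile of the shared peaks was 4.53 in the Seh1-flag list (2.24 to 8.41), against 51.1 for the unshared, and 15.3 in the siSCR list (10.2 to 25.0), against 57.9 for the unshared. Outside the dense bins described further on, the 71 shared pairs had a median percentile of 31.0 in Seh1-flag (4.89 to 54.5) and 17.2 in siSCR (9.56 to 35.1). The Seh1-flag interval there holds the 51.1 of the unshared peaks, so by the median a higher rank beyond counting error was seen in siSCR only. The top 10% of Seh1-flag scores still stood out there, with 30 of 2254 peaks shared (1.33%, 0.900 to 1.89%). Each lower band of 10% outside dense bins had a share between 0.0748 and 0.481%. Over the whole Seh1-flag list, 108 of the 2471 peaks in the top 10% were shared (4.37%), while each lower band had a share between 0.189 and 0.638%. In the siSCR list 73 of the 258 peaks in the top 10% were shared (28.3%, 22.9 to 34.2%), 24 of the 239 in the next band and 1.49% in the lowest. Both summits were in the top 10% of their list in 64 of the 178 pairs, and both were below the middle of it in 15. Across the pairs the 2 scores had a Spearman correlation of 0.518, a description over 178 pairs that share libraries and, in part, one region.

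Score and promoter position went together in the siSCR list. Beyond 1 kb of a TSS, 70 of the 114 siSCR peaks in the top 10% were shared (61.4%, 51.8 to 70.4%), against 103 of the 2101 lower ones (4.90%, 4.02 to 5.91%). Within 1 kb, 3 of the 144 peaks in the top 10% were shared (2.08%, 0.432 to 5.97%). Over the whole list, the strongest distal Chd4 siSCR peaks therefore mostly had a Seh1-flag summit beside them. The strongest promoter peaks mostly did not. Outside dense bins, 25 of 49 distal siSCR peaks in the top 10% were shared (51.0%, 36.3 to 65.6%). Of the 1843 lower distal ones there, 43 were shared (2.33%, 1.69 to 3.13%). The contrast by score was thus also seen there, but the interval of the top 10% does not show that most were shared.

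**Figure D3:**
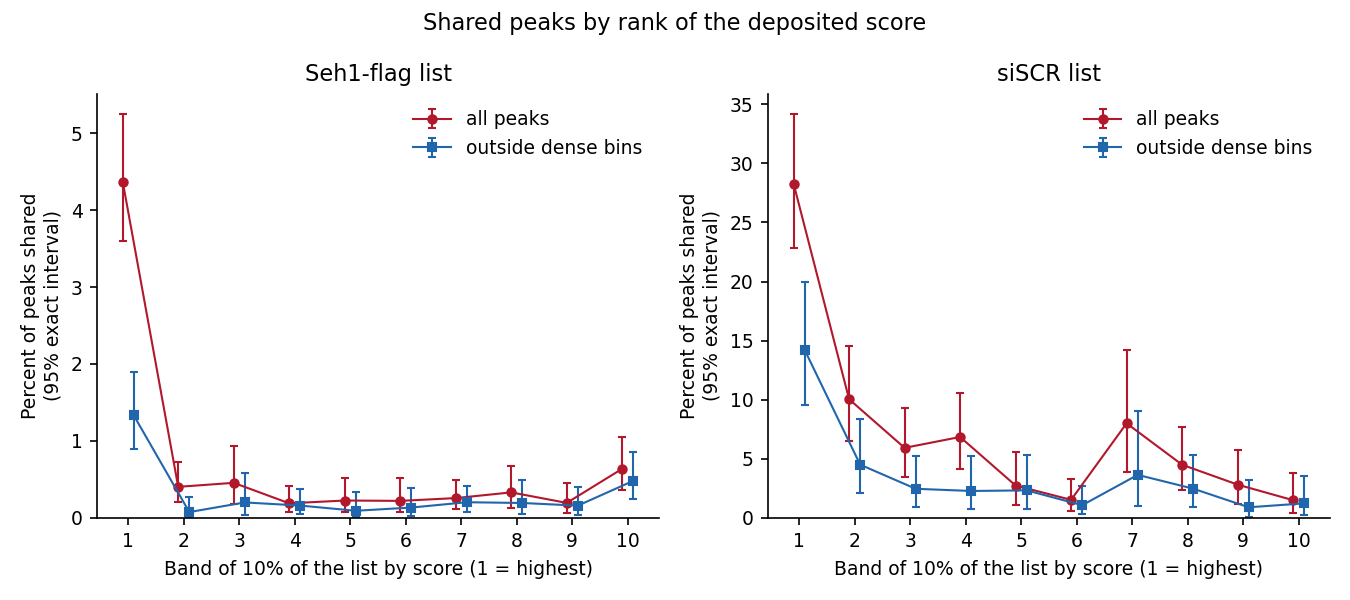
Percent of peaks shared (vertical axis, with 95% exact intervals) in each band of 10% of the list by deposited score (horizontal axis, 1 = highest), for the Seh1-flag list on the left and the siSCR list on the right, for all peaks (red) and outside dense bins (blue). The first band stands above the others in both lists, at 4.37% of the Seh1-flag and 28.3% of the siSCR peaks.

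Among the 10 highest scores of each list, 6 Seh1-flag peaks and 6 siSCR peaks were shared. The highest Seh1-flag score, 709.7, belonged to an intergenic peak nearest Vit, which encodes the extracellular matrix protein vitrin, and a siSCR summit with a score of 10.9 lay 167 bp away. The next, 535.9 nearest Fut8, had its nearest siSCR summit 202799 bp away. The third highest Seh1-flag score, 259.0, and the highest siSCR score, 59.1, both lay in the single exon of Sox11, a transcription factor of newborn neurons, but their summits were 299 bp apart and so were not shared by the rule.

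Ranked over both lists, the leading pair lay in a satellite repeat of the unplaced contig JH584304, with both summits at position 114120 and scores of 40.0 in Seh1-flag and 19.3 in siSCR. The nearest gene was Pisd-ps3, a pseudogene of phosphatidylserine decarboxylase. The nearest genes of other leading pairs were the pseudogene Zfa-ps (summits 15 bp apart), Steap1, Snord14c, Adam29, 4930572O03Rik and Gm21188. The pairs nearest Zfa-ps, Steap1 and Adam29 were intergenic. Pairs at 2700054A10Rik (13 bp apart) and Smo (18 bp apart) both lay in the first intron, in a simple repeat annotated as (CTGTG)n. Smo encodes the transducer of Hedgehog signalling, and its pair scored 14.9 in Seh1-flag and 19.6 in siSCR. The pair in intron 1 of 22 of Ctnnd2, which encodes delta-catenin of neuronal junctions, lay in a LINE element of the L1 family, with summits 7 bp apart and scores of 11.6 in Seh1-flag and 26.8 in siSCR.

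The shared pairs clustered along the genome. Joined where neighbouring shared summits were under 10 kb apart, the 178 pairs formed 105 loci, of which 79 held 1 pair and 26 held the other 99 pairs. Bins of 200 kb with 4 or more siSCR peaks, called dense here, held 107 pairs (60.1%, 52.5 to 67.4%), against 2.16% of the unshared Seh1-flag and 9.64% of the unshared siSCR peaks. The siSCR peaks themselves define these bins. In them 31.4% of the siSCR peaks were shared, against 3.13% elsewhere. The nearest gene was a pseudogene for 31 pairs (17.4%, 12.2 to 23.8%), against 2.30% of the unshared Seh1-flag and 3.75% of the unshared siSCR peaks. Most of these pairs came from the contig JH584304 (Pisd-ps3, 9 pairs) and from a Speer gene region of chromosome 5. In that region they were nearest 4930572O03Rik (8), Speer8-ps1 (4) and Speer4cos (4). The rest were nearest Zxda (3), Zfa-ps (2) and Gm13238 (1).

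The Speer gene region of chromosome 5 (14800001 to 15800000 in mm10, 5 adjoining bins chosen after the values were seen) held 61 of the 178 pairs (34.3%). It carried 226 Seh1-flag and 89 siSCR peaks, and 68.5% of those siSCR peaks were shared, while the other lists had 14 (Seh1 Ctrl), 0 (Chd4 Ctrl), 18 (Chd4 iKO) and 9 (siSeh1) peaks there. The peaks fell in 2 blocks separated by a wide gap. The genes with most pairs in the whole comparison were Gm21190 with 12, 4930572O03Rik and Gm17019 with 8 each, all 3 in this region, Pisd-ps3 with 9 and Adam29 with 7. Speer4d, also with 7, is in the region as well. Genes of the Speer family were nearest to 21 pairs (11.8%, 7.45 to 17.5%), against 0.331% of the unshared Seh1-flag and 0.371% of the unshared siSCR peaks.

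Several genes of this region have closely similar promoters. Of its 11 named genes, 8 had a RefSeq promoter window, and the best match of each to another of the region was 91.7 to 98.7% identity over the aligned 300 bases. Over all pairs of windows the highest was Speer4e with Speer4c at 98.7% and the lowest Speer4e with Gm21190 at 77.0%. The other 3 genes were not compared. The shared Seh1-flag peaks here had a median percentile of 0.757, against 18.1 for the unshared ones, and the shared siSCR peaks had 15.2, against 22.8 for the unshared ones. Within the region, too, the Seh1-flag peaks with a siSCR summit beside them had the higher scores by the median. The highest Seh1-flag peak of the region, at percentile 0.024, was nevertheless unshared.

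**Figure D4:**
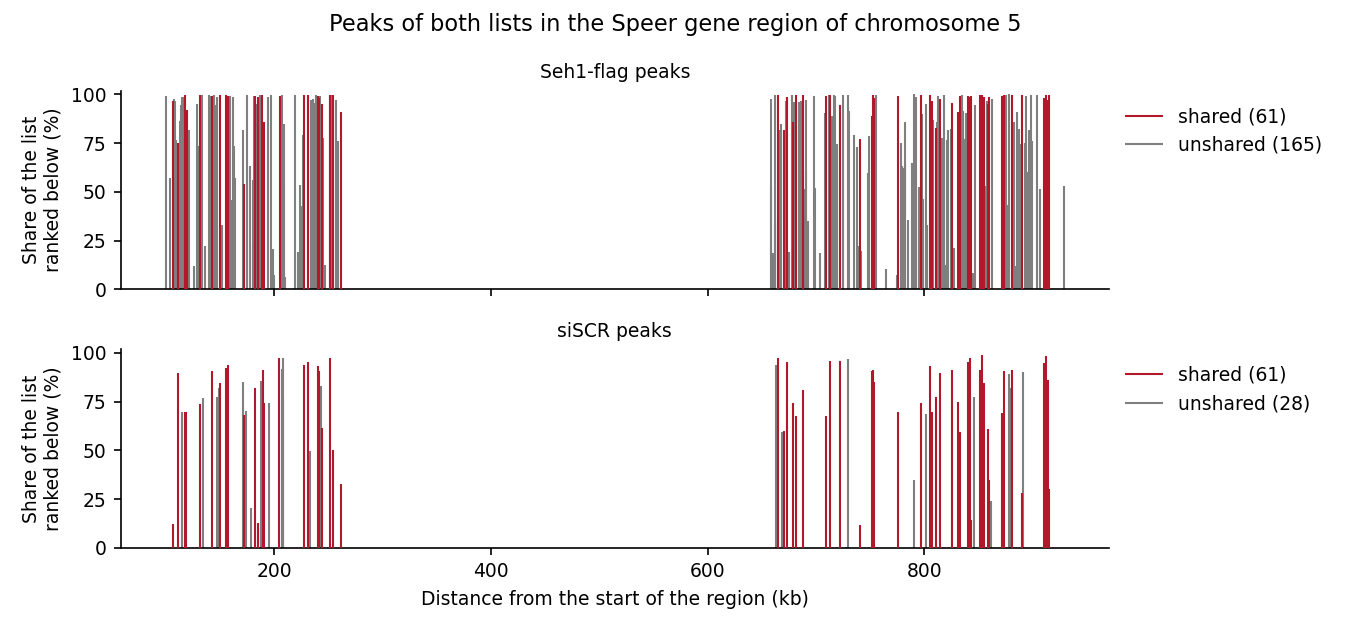
Seh1-flag peaks (upper panel) and siSCR peaks (lower panel) in the Speer gene region of chromosome 5, by distance from the region's start in kb (horizontal axis), each drawn as a line whose height is the percent of its own list ranked below it. Shared peaks, 61 in each panel, are red and unshared ones grey (165 in Seh1-flag and 28 in siSCR). Both lists fall in the same 2 blocks.

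Smaller clusters lay elsewhere. All 7 siSCR peaks in an intergenic stretch of 40 kb on chromosome 8, whose nearest gene is Adam29, were shared, among 17 Seh1-flag peaks there. Adam29 encodes a testis protein of the ADAM family. The contig JH584304 held 42 Seh1-flag and 24 siSCR peaks, of which 9 were shared, and 7 of these 9 lay in satellite repeats. Near 4932411N23Rik on the X chromosome, all 4 siSCR peaks were shared among 19 Seh1-flag peaks, and 17 Chd4 Ctrl peaks lay there too. The limits of these chromosome 8 and X stretches lie close around the shared pairs, so the counts there depend on them. Counted by nearest gene instead, all 7 siSCR peaks nearest Adam29 were shared, among 45 Seh1-flag peaks. All 4 nearest 4932411N23Rik were shared too, among 34 Seh1-flag peaks.

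At promoters, 16 genes had a peak within 1 kb of the TSS in both lists, 4.32% of the 370 Seh1-flag and 4.17% of the 384 siSCR promoter genes, and 6 of them were in the Speer region. The count was 8 within 500 bp and 35 within 2 kb. Shared summits were found at 5 of the 16. At Pgk1 the summits shown above lay 79 bp apart, 120 bp upstream of the TSS in Seh1-flag and 199 bp upstream in siSCR, with scores of 11.3 in Seh1-flag and 27.1 in siSCR, the second highest of the siSCR list. At Slit1, which encodes an axon guidance ligand, they were 75 bp apart in exon 1 of 37, with scores of 5.39 in Seh1-flag and 5.08 in siSCR. At Snord14c, a small nucleolar RNA gene inside the heat shock chaperone gene Hspa8 (9:40801276 to 40805202), they were 16 bp apart, with scores of 24.2 in Seh1-flag and 17.4 in siSCR. The other 2 were Speer4c and Speer4cos, with summits 2 and 16 bp apart. So 3 of the 5 lay outside the Speer region.

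At the other 11 genes both proteins had a promoter peak but the summits were farther apart. They were 299 bp apart at Sox11, 339 bp at Ccdc14, 399 bp at Gm9758, 440 bp at Gm10354, 457 bp at Pisd-ps3 and 471 bp at Miga2. Rab11b, which encodes a small GTPase of recycling endosomes, and Gm21190 both had 479 bp, and Gm17019 had 652 bp. At Dux, which encodes a transcription factor of the early embryo, the promoter summits were 1113 bp apart, yet a second pair near its transcription end site was shared with 42 bp between summits. At Fam192a the 2 peaks lay 10481 bp apart, at different annotated starts.

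The promoters of the 2 lists differed in base composition. RefSeq windows of genes with a Seh1-flag promoter peak (257 windows) had a median GC content of 52.3% and 8 CG dinucleotides, near the 52.7% and 7 of all 32851 windows, while those with a siSCR promoter peak (310 windows) had 63.7% and 24. The GC box GGGCGG, the letters bound by SP and KLF factors, searched on both strands, was found in 35.8% of the Seh1-flag, 77.1% of the siSCR and 35.7% of all windows. The Pgk1 and Miga2 windows both hold it, with 24 and 21 CG dinucleotides. The ETS letters CCGGAAG were in 10.1% of the Seh1-flag, 10.3% of the siSCR and 8.86% of all windows, and the SOX letters CATTGT in 8.17% of the Seh1-flag, 4.19% of the siSCR and 12.6% of all windows. A match of letters is not a binding site.

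Shared peaks in exons were few, and 1 lay in the gene of the tagged protein. In Seh1l, the mouse gene for Seh1, the summits were 80 bp apart in exon 4 of 8 on chromosome 18, at 67785024 in Seh1-flag (score 9.52, percentile 3.34) and 67784944 in siSCR (score 7.79, percentile 4.53). Peaks of Seh1 Ctrl and siSeh1 lay in the same exon. In Chd4, the gene of the other target, Seh1-flag had 1 peak, in intron 38, and siSCR had 7, of which 6 were in exons, and none was shared. Exons held 1.69% of all unshared siSCR peaks. The exon peaks of siSCR in Chd4 were in exons 6, 9, 15, 16, 19 and 24 of 39, with the highest score, 10.3, in exon 24. The deposited lists name Mir7045 as the nearest gene of all 7, so a search by gene name does not find them under Chd4. The exon peaks were not particular to siSCR. Exons also held 7 of the 8 siSeh1 peaks and 2 of the 2 Chd4 iKO peaks in Chd4, while Chd4 Ctrl had 0 peaks in the gene.

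In the gene lists few genes were nearest to a shared peak. Of 21896 protein-coding genes, 38.9% were the nearest gene of a Seh1-flag peak, 7.46% of a siSCR peak, 4.86% of peaks of both lists and 0.324% of a shared peak. Of 33 nuclear pore and GATOR2 genes, 22 were nearest to a Seh1-flag peak, 2 to a siSCR peak and 2 to a shared one, Seh1l and Xpo1. Xpo1 encodes the main nuclear export receptor, and its pair, 26 bp apart in an LTR element with a deposited distance of -30624 bp from its TSS in Seh1-flag, scored 3.85 in Seh1-flag and 8.39 in siSCR. Of 15 NuRD genes, 7 were nearest to a Seh1-flag peak and 3 to a siSCR peak, with 0 shared. Promoter peaks of siSCR lay at 2 of the 15, against 1.63% of all protein-coding genes. These were Mbd3, the methyl-binding-domain subunit of NuRD, and Gatad2a, a zinc finger subunit. Neither had a Seh1-flag promoter peak, but only 1.33% of all protein-coding genes had one. As only 0.324% were nearest to a shared peak, the 15 genes are also too few to show a lack of shared peaks.

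Cell cycle genes had 16 of 35 nearest to a Seh1-flag peak, 6 to a siSCR peak and 1 to a shared pair. That gene was Cdkn1a, which encodes the cell cycle inhibitor p21. Its intergenic summits were 39 bp apart and scored 8.25 in Seh1-flag and 4.75 in siSCR. The Seh1-flag summit had a deposited distance of 9215 bp from the Cdkn1a TSS, beyond the end of the gene. The pair lay in a dense bin, beside shared pairs nearest Rab44. Promoter peaks of siSCR lay at 4 of the 35 (E2f1, E2f3, Aurka and Mcm5), against 1.63% of all protein-coding genes, and none of the 4 had a Seh1-flag promoter peak (background 1.33%). Of 31 long neuronal genes, 30 were nearest to a Seh1-flag peak, 15 to a siSCR peak and 15 to both. Over all protein-coding genes these shares were 38.9%, 7.46% and 4.86%. A shared pair was nearest to 0 of the 31, but only 0.324% of all protein-coding genes had one, so this list is too short to show a lack. The median span of the 31 genes was 1150 kb, against 17.1 kb over all protein-coding genes. A peak of each list can thus fall near them at places far apart.

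The markers of cell types are given because peak lists cannot show which cells were present. Of 24 neural stem cell factors, 10 were nearest to a Seh1-flag peak. Of 30 neurogenic and neuronal factors, 13 were nearest to a Seh1-flag and 5 to a siSCR peak, and Sox11 had a promoter peak in both (0.0548% of all protein-coding genes had). Of the 14 genes in each other marker list, Seh1-flag and siSCR peaks were nearest to 2 and 0 oligodendrocyte, 6 and 1 astrocyte, and 10 and 2 microglial, endothelial and mural genes. Of all protein-coding genes, 38.9% were nearest to a Seh1-flag and 7.46% to a siSCR peak. No gene of these 5 lists was nearest to a shared peak. Since only 0.324% of all protein-coding genes were, lists of this size cannot show a lack.

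Shared peaks also recurred in the other 4 lists. Of the 178 shared Seh1-flag peaks, 16 had a Seh1 Ctrl peak within 240 bp (8.99%, 5.23 to 14.2%), against 0.601% of the unshared, and 30 had a Chd4 Ctrl peak (16.9%, 11.7 to 23.2%), against 0.367% of the unshared. With Chd4 iKO there were 31 (17.4%), against 0.605% of the unshared, and with siSeh1 also 31, against 124 of the 24783 unshared. Seen from siSCR, 29 shared peaks had a Chd4 Ctrl peak (16.3%, 11.2 to 22.6%), against 1.32% of the unshared. With Chd4 iKO there were 33 (18.5%, 13.1 to 25.0%), against 12.7% of the unshared siSCR peaks, and with siSeh1 also 33, against 15.6%. In the last 2 contrasts the intervals of shared and unshared peaks overlapped.

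**Figure D5:**
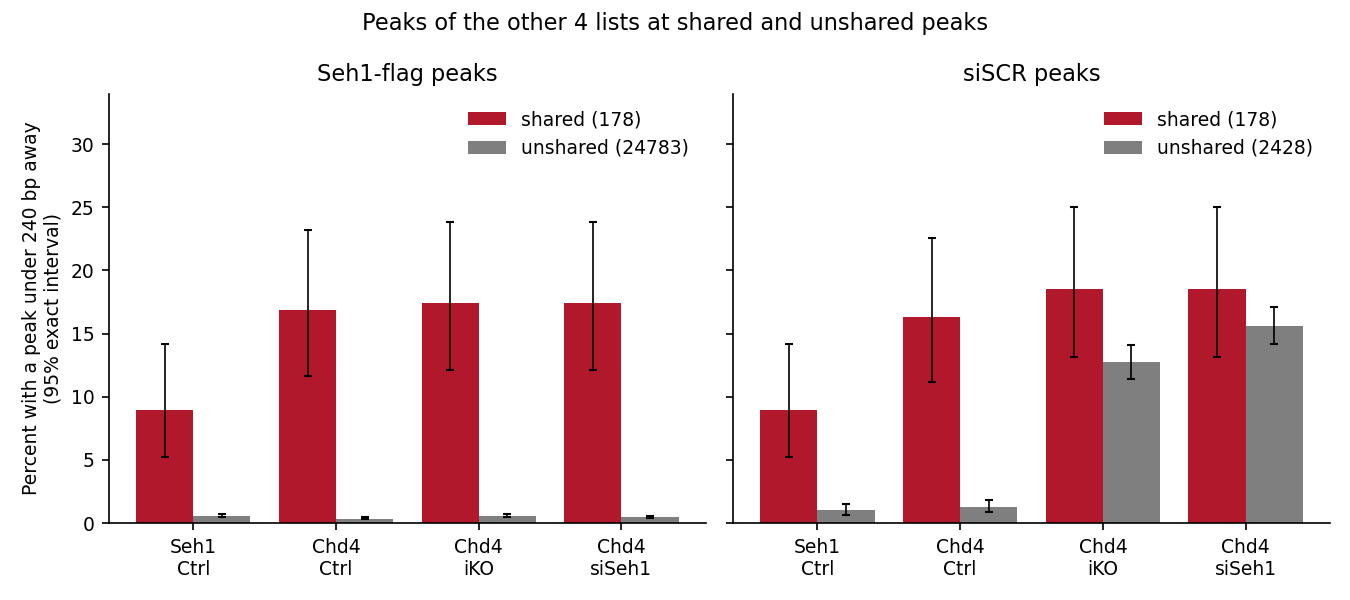
Percent of shared (red) and unshared (grey) peaks with a peak of each other list under 240 bp away, with 95% exact intervals, for the Seh1-flag list on the left and the siSCR list on the right. Recurrence is higher in shared Seh1-flag peaks for all 4 lists, while for siSCR peaks the intervals overlap for Chd4 iKO and Chd4 siSeh1.

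Of the 178 pairs, 104 had a peak in none of the other 4 lists, 49 in 1, 16 in 2, 9 in 3 and 0 in all 4. The 9 pairs in 3 other lists were 6 satellite pairs of the contig JH584304, 1 satellite pair nearest Mir101c, and the (CTGTG)n pairs of 2700054A10Rik and Smo. All 9 thus lay in tandem or simple repeats.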

How the data were processed

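The members and lists described here were chosen with earlier results of these data known. The authors deposited 1 annotated peak list per library, annotated by HOMER against mm10, per the file headers. The submitters' processing notes list Bowtie2 and HOMER and, against the mm10 of the headers, the human builds hg18 and hg38. The header name of the Seh1-flag list contains the word input, but no source used here gives the peak caller, its threshold, how input was used or the total reads, so sequencing depth is unknown. The deposited peak score was ranked within its list, and the deposited distance to the TSS, in bp, was used as given.

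Nearest summits were found with Python 3.11.15, pandas 2.3.3 and numpy 2.4.6, tested on simulated peaks, and checked with bedtools 2.31.1, which also counted 178 shared siSCR peaks. Exact Clopper-Pearson 95% intervals came from scipy 1.17.1. Seh1 Ctrl peaks are intervals (240 to 1296 bp), measured here from their centres, with every score at 0. The minimum scores were 2.00 in Seh1-flag and 2.03 in siSCR. Genes were matched to RefSeq (GRCm38.p6) for 10915 of 10931 gene identifiers (99.9%). Promoter windows of the Speer region were aligned globally in pairs with biopython 1.88. Genes were named by rule: those with a shared promoter peak or a promoter peak in both lists, the 10 best-ranked pairs, the 5 genes with most pairs, the shared exon pairs, the pairs beside the distance limit, gene list members with a shared peak, and Seh1l and Chd4. Vit, Fut8, Speer4d, Mir101c, and the promoter genes named in the gene lists were named after their values were seen. The alternatives changed the distance limit, score minimum, list length, dense bins, repeats, chromosomes, promoter window and locus joining. The siSCR count of the neural stem cell factors is not reported here.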

Additional observations from a re-analysis of the deposited data

How the results depend on the processing

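Of 106 values of 12 results under 15 settings, 71 moved by less than their own interval or by less than 1.5 times for counts, 32 moved further and 3 changed sign. The 178 shared peaks became 309 in Seh1-flag and 277 in siSCR under 1000 bp, and, in each list, 115 among peaks at or above the median score, 108 with the Seh1-flag list limited to the length of siSCR, 71 without dense bins, 73 without repeats and 117 without the chromosome 5 region. The last setting and the one with peaks beyond 1 kb were chosen after seeing the data.

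Differences are shared minus unshared. The median percentile difference, -46.6 in Seh1-flag and -42.6 in siSCR, became -37.8 and -31.6 under 1000 bp. It was -25.6 and -19.7 above the median score, and -4.56 and -49.7 at equal length. Percentiles stayed those of the full list, so removing low scores itself narrows their range: the values -25.6, -19.7 and -4.56 are bounded by that filter and show no weaker separation. In Seh1-flag it was -20.1 without dense bins, with an interval that holds 0 (-46.2 to 3.44), and -36.0 without the chromosome 5 region, and in siSCR -47.7 under 100 bp. The Seh1-flag promoter difference, 1.29 percentage points (-0.319 to 4.89), had intervals above 0 under 100 bp (2.36), 500 bp (4.58) and 1000 bp (4.03), above the median score (2.78) and with a window of 500 bp (2.22). The siSCR promoter difference, -13.1 percentage points, was -23.3 above the median score and -24.0 without repeats. The siSCR intergenic difference was 29.6 without repeats instead of 18.2. In Seh1-flag the intergenic difference, 15.6 percentage points, was 10.6 without dense bins, with an interval that holds 0 (-0.817 to 20.0). The median TSS distance difference, -27.0 kb in Seh1-flag and -17.9 kb in siSCR, was -10.3 and -1.60 kb without dense bins, and 3.36 and 12.2 kb without the chromosome 5 region. In siSCR it was -4.85 kb above the median score, -22.9 kb at equal length, -36.9 kb among peaks beyond 1 kb and 1.88 kb without repeats. The 3 values above 0 have intervals that hold 0, so the difference was lost there rather than shown to be reversed. The intervals without dense bins also hold 0 in both lists, as does that of siSCR above the median score. The 16 promoter genes in both lists were 10 above the median score, 8 within 500 bp and 35 within 2 kb. The cause of the other changes was not tested.

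No paired analysis was possible because each group had 1 library. The lists hold no read depth, so weak peaks that either library missed cannot be counted. How reads were placed in repeats and gene copies is not stated by any source used here.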
